A study of Mus musculus with 8 samples.

Results

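The 10 genes described here are canonical targets and feedback regulators of Wnt signalling, taken by symbol from a table of 24354 genes: Axin2, Lef1, Tcf7, Tcf7l1, Sp5, Cdx1, Nkd1, Rnf43, Znrf3, and Lgr5. Poly-A RNA of mouse stem cells was sequenced in 8 libraries, 2 from each of 4 groups, and gene levels were given as FPKM (fragments per kilobase of transcript and per 1000000 mapped fragments). Embryonic stem cells (ESCs) were wild-type E14 cells grown in serum and LIF on mitomycin-C inactivated C3H mouse embryonic fibroblasts. Neural stem cells (NSCs) carried the Oct4-GFP reporter OG2 and the lacZ transgene ROSA26. They were grown with EGF and FGF2 on gelatin without feeders. Extended pluripotent stem cells (EPSCs) were a wild-type line derived from 8-cell C57BL/6 embryos. They were kept on the same type of feeders in LCDM medium, which holds minocycline hydrochloride, dimethindene maleate, CHIR99021, and human LIF. EPSC-NSC hybrid cells were a tetraploid line made by polyethylene glycol fusion of EPSCs with the OG2/ROSA26 NSCs, selected as Oct4-GFP+ cells and kept in LCDM on feeders. Each group was 1 line. Line, strain, and medium cannot be told apart between EPSCs and ESCs, while EPSCs and hybrid cells shared the medium but differed at least in line, ploidy, and the NSC genome, and in their labels, which carry p15 for EPSCs and p10 for hybrid cells without saying what these stand for. The p-values below rest only on the spread between 2 libraries of a line, which may be technical. That spread was pooled over all 4 lines, so it is not that of the 2 lines compared alone.

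In the canonical Wnt pathway, a Wnt ligand bound to a Frizzled receptor and an LRP co-receptor halts a cytoplasmic complex of Axin, APC, and the kinase GSK3 that otherwise marks beta-catenin for destruction. Stabilised beta-catenin enters the nucleus and joins the TCF/LEF factors on target genes, several of which encode negative regulators of the same pathway. CHIR99021 inhibits GSK3 and so acts on the pathway below the receptors. In mouse pluripotent cells, Tcf7l1 mainly represses its targets, and beta-catenin relieves that repression.

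The labels were checked against marker genes. The summed level of 9 pluripotent cell markers was 4878 to 5781 FPKM in the ESC, EPSC, and hybrid libraries and 118.6 to 122.6 in NSCs, where Sox2, which NSCs also use, carried nearly all of it and 5 of the 9 were listed at 0. For 10 neural stem cell markers the sum was 3951 to 3994 FPKM in NSCs and 16.6 to 29.8 in the other 6 libraries. The 10 fibroblast markers, which feeder cells express, summed to 12 and 13.1 FPKM in ESCs, 7.44 and 8.90 in NSCs, 75.2 and 73.2 in EPSCs, and 290.1 and 216.1 in hybrid cells. None of the 10 was at 0 in EPSCs or hybrid cells, and 4 to 6 of them were at 0 in NSCs. RNA of other cells in a culture and RNA of the labelled cells cannot be told apart in bulk samples, nor can fewer cells of a type and less RNA per cell. The depth derived from the steps of the lowest FPKM values was 22000000 to 32500000 fragments per library.

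**Figure D1:**
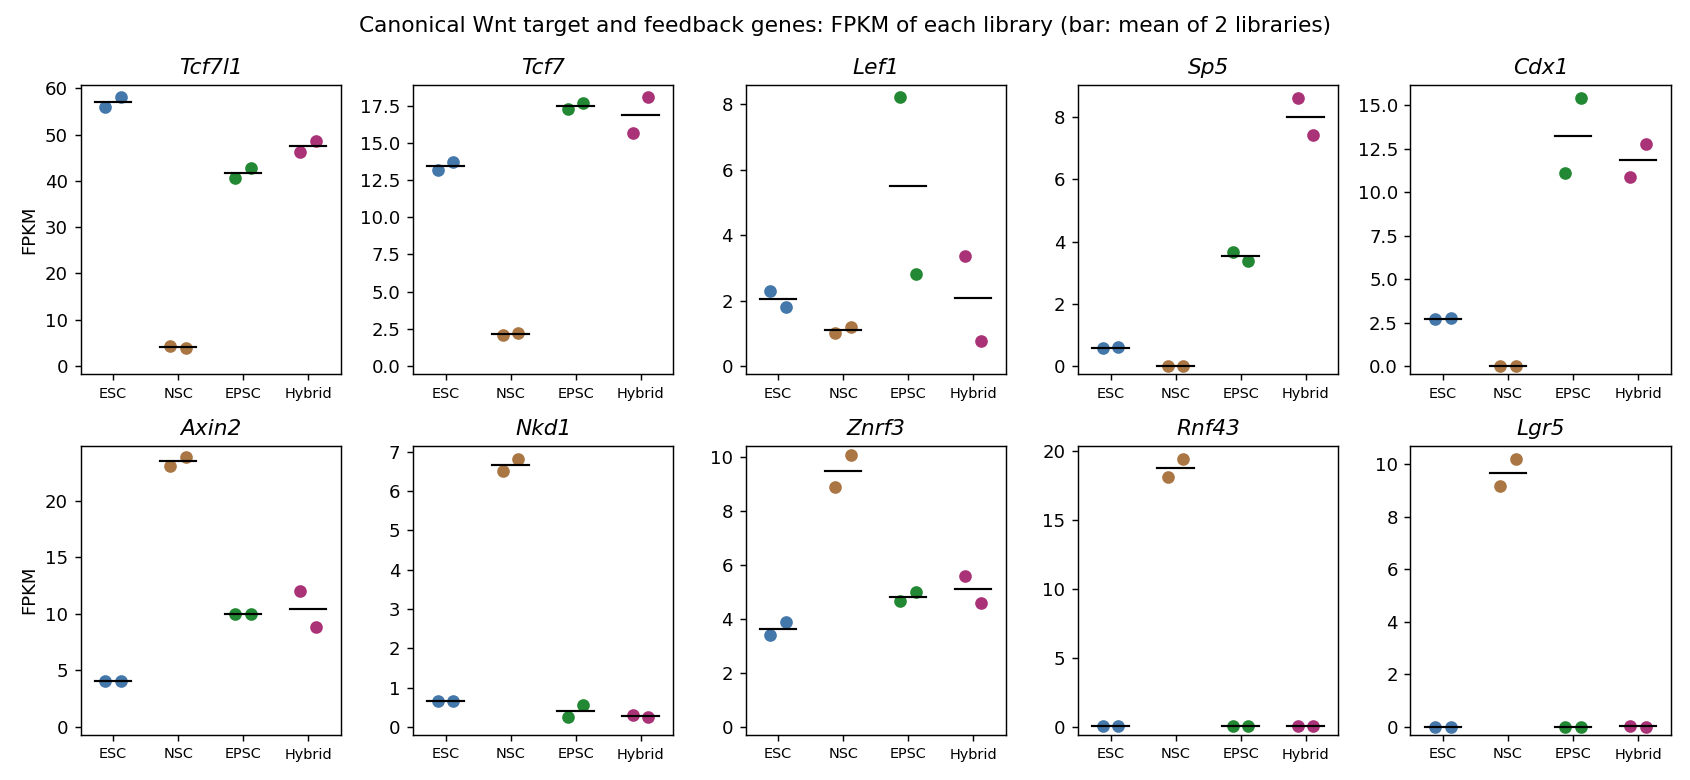
FPKM (vertical axis, linear, a scale of its own for each gene) of the 10 genes in the 2 libraries of each group (points), with the group mean as a bar. Sp5 and Cdx1 are at 0 in NSCs and higher in EPSC and hybrid libraries than in ESCs, Rnf43 and Lgr5 are near 0 outside NSCs, and the points of Lef1 lie far apart in the lines kept with CHIR99021.

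EPSCs and hybrid cells, both kept in LCDM medium, carried higher levels of the targets Sp5, Cdx1, and Axin2 than ESCs did. The part of CHIR99021, or of any other agent of the medium, was not tested and cannot be told apart from line and strain. Smaller differences were found in the factors Tcf7 and Tcf7l1 and in the ubiquitin ligase Znrf3. The feedback gene Nkd1 ran the other way, lower in every EPSC and hybrid library than in ESCs and called lower in hybrid cells. The tests come from limma on log2(FPKM + 1), fitted to the 13239 genes whose mean reached 1 FPKM in any group and called at a Benjamini-Hochberg adjusted p under 0.05. Changes on this scale understate those of low genes. All 10 genes were tested. Nkd1, Rnf43, and Lgr5 reached a mean FPKM of 1 in NSCs alone, and Sp5 in EPSCs and hybrid cells alone. These 4 passed the filter through the groups where they were high. For part of their differences, the fit with no filter on low values is therefore given. Between EPSCs and ESCs, 5 of the 10 were called higher in EPSCs, where 33.7% of all genes tested were, and 1 was called lower, where 27.3% were. The share of members called higher lies above that of all genes, but 5 of 10 is a small count. The study's methods ask for an average over 3 FPKM and a change over 3-fold, while its results give thresholds of 2. A second rule, 1 reading of those methods, asked that the group with the higher mean exceed 3 FPKM and lie more than 3-fold above the other. Sp5 and Cdx1 passed it as higher in EPSCs, against 1.28% of all 24354 genes, and no member passed it as lower, against 1.29%. Where the mean over both groups had to exceed 3 FPKM, another reading, Sp5 did not pass in EPSCs. Between hybrid cells and the same ESC libraries, 5 members were called higher (35.3% of all genes tested) and 2 lower (30.2%). Sp5 and Cdx1 again passed the second rule as higher, which 1.98% of all genes did, and none passed it as lower, which 1.65% did. The median log2 difference of the 10 genes was 0.34 for EPSCs and 0.16 for hybrid cells. Over all genes tested it was 0.04 in both comparisons. For hybrid cells the median of the 10 genes was 0.14 without the first hybrid library and 0.36 without the second. With a pseudocount of 0.1 it was 0.26. Both comparisons use the same 2 ESC libraries, so they are not independent.

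**Figure D2:**
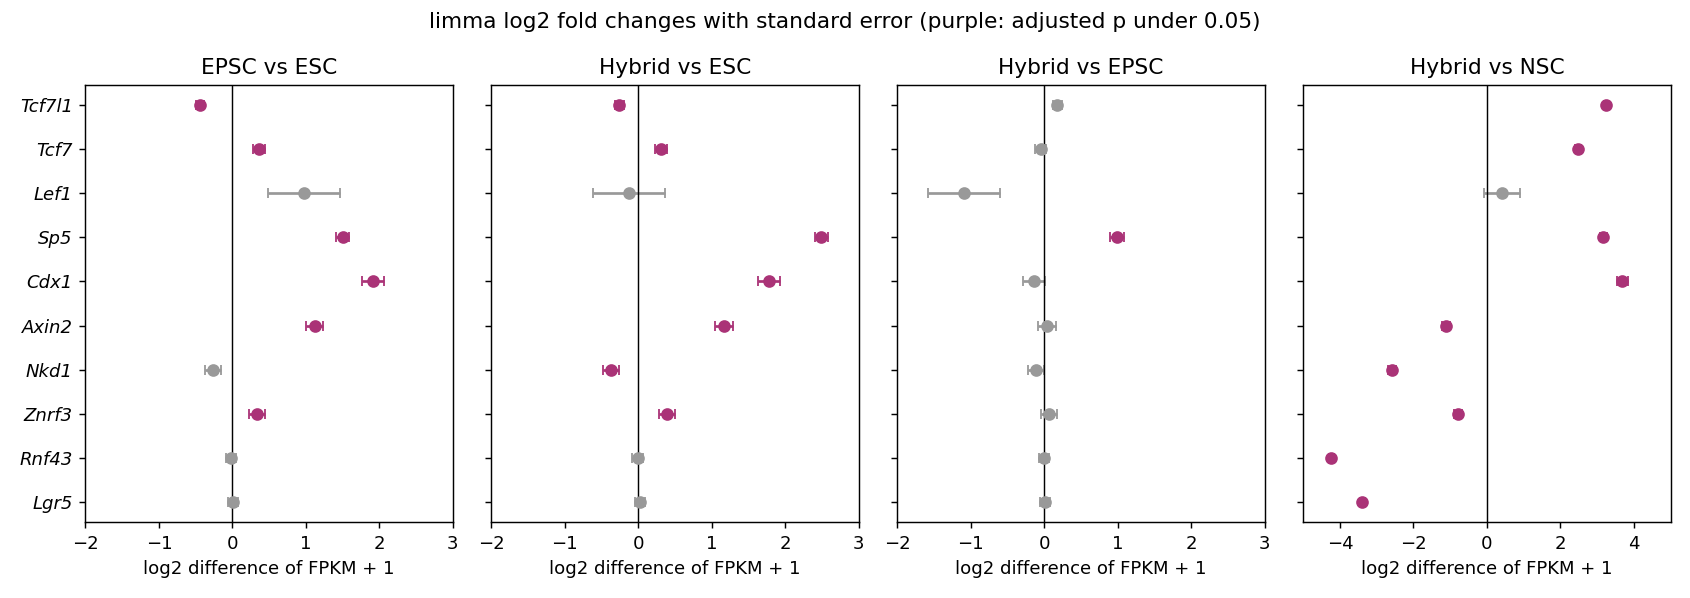
Difference of the group means of log2(FPKM + 1) for each of the 10 genes (points) with its standard error (bars) in 4 comparisons, purple where the limma adjusted p was under 0.05 and grey elsewhere. The last panel has a wider axis. Sp5 lies at 1.5 and 2.49 against ESCs and at 0.99 between hybrid cells and EPSCs, and Lef1 has the widest error, 0.49.

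Sp5 encodes a zinc-finger transcription factor of the Sp family that Wnt signalling induces directly, and it had the largest ratio of means among the 10 genes between EPSCs and ESCs. Its level in hybrid cells was the only one of the 10 that the test separated from EPSCs. Its promoter sequence is shown for that reason, beside those of Axin2, the usual readout of the pathway, and Lef1, a target whose level varied between libraries of a line. Windows of 250 bases before a start site were read from RefSeq (GRCm38.p6) and were found for 7 of the 10 genes, 12 windows in all. The core of the TCF/LEF motif, CTTTG, was searched on both strands (as CTTTG or CAAAG), and capitals mark each match. The Sp5 window lies at chr2:70474673-70474922, the Lef1 window at chr3:131110047-131110296, and the Axin2 window at chr11:108920099-108920348, all on the plus strand. The start site behind the Axin2 window lies inside the span of the gene, and that of the Lef1 window is the first base of the gene.
Sp5: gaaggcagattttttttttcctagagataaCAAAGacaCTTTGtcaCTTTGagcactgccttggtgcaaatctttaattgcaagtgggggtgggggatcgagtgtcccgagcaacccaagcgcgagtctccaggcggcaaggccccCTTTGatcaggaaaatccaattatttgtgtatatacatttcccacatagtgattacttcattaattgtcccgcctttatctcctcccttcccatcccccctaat
Lef1: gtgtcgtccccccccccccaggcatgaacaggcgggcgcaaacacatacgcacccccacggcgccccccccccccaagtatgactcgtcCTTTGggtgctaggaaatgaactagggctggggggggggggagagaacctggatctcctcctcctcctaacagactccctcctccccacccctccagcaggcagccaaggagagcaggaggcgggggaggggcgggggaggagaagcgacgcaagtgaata
Axin2: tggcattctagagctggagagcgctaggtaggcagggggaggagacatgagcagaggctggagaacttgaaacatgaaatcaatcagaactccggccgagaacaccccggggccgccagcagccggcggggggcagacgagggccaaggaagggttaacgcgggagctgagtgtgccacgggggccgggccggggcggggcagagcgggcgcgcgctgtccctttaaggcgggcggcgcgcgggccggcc
The Sp5 window held 4 matches, which began 220, 212, 204, and 104 bases before the start site. A match is a description of the letters and not a binding site. Of all 32851 windows of this length, 48.6% held at least 1 match, 3.94% at least 3, and 0.773% at least 4. The Lef1 window shown held 1 match, 161 bases before the start site. The other Lef1 windows held 2, 1, and 3 matches, and the Tcf7l1 window held 1, at 28 bases. The windows of Axin2 and Nkd1 and both windows of Tcf7 and of Rnf43 held none, which says only that these letters are not in them.

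Sp5 (gene ID 64406, chromosome 2, 70474923 to 70477726) was at 0.596 and 0.597 FPKM in ESCs, 3.66 and 3.38 in EPSCs, and 8.60 and 7.41 in hybrid cells. The libraries of these 3 groups did not overlap, and hybrid cells were highest. In both NSC libraries Sp5 was listed at 0, where 3 fragments on its longest transcript would give 0.0554 and 0.0552 FPKM. EPSCs exceeded ESCs 5.90-fold, a log2 difference of 1.5 ± 0.09 (SE; limma, Benjamini-Hochberg adjusted p = 1.6e-05). Hybrid cells exceeded ESCs 13.4-fold, a log2 difference of 2.49 ± 0.09 (limma, adjusted p = 1.7e-06). Their mean of 8.0 ± 0.847 FPKM (SD, n = 2) was also 2.28-fold that of EPSCs at 3.52 ± 0.199, and limma gave a log2 difference of 0.99 ± 0.09 with an adjusted p of 0.000324. Over all alternative settings the adjusted p of this last difference ranged from 0.000265 to 0.0222. With no filter on low values, the adjusted p of these 3 differences was 0.000121, 2.5e-05, and 0.00133 (limma). The fibroblast markers moved alongside: 9 of the 10 were tested, 8 were called higher in EPSCs than in ESCs and 9 higher in hybrid cells than in EPSCs, and the hybrid library with more Sp5 also had the higher fibroblast sum. Of the other members, Axin2, Lef1, Nkd1, and Znrf3 were also higher in that hybrid library, and Tcf7, Tcf7l1, and Cdx1 were lower. Rnf43 and Lgr5 lay near the level of 3 fragments in hybrid cells. The part of fibroblast RNA in the levels of Sp5 or of the other members was not tested.

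Cdx1 encodes a caudal-type homeobox factor that acts downstream of Wnt in patterning the posterior embryo. The gene (ID 12590) lies on chromosome 18 from 61018862 to 61036199. Its level was 2.71 and 2.74 FPKM in ESCs, 11.1 and 15.4 in EPSCs, and 10.9 and 12.8 in hybrid cells, and it was listed at 0 in both NSC libraries, where 3 fragments would give 0.0679 and 0.0676. Every EPSC and hybrid library was above both ESC libraries, while EPSC and hybrid libraries overlapped. The mean was 4.86-fold higher in EPSCs than in ESCs, a log2 difference of 1.92 ± 0.15 (SE; limma adjusted p = 4.9e-05). In hybrid cells it was 4.35-fold higher than in ESCs, a log2 difference of 1.78 ± 0.15 (limma adjusted p = 4.8e-05). From EPSCs to hybrid cells the log2 difference was -0.14 ± 0.15 and did not pass the test (limma adjusted p = 0.491).

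Axin2 encodes a scaffold of the beta-catenin destruction complex and is a widely used readout of the pathway, since beta-catenin induces it and its product limits beta-catenin. The gene (ID 12006) lies on chromosome 11 from 108917828 to 108950783. NSCs had the highest level of the 4 groups and ESCs the lowest. The libraries were at 23.1 and 23.9 FPKM in NSCs, 12 and 8.85 in hybrid cells, 10 and 9.95 in EPSCs, and 4.06 and 4.02 in ESCs. Only the EPSC and hybrid libraries overlapped, with the EPSC values lying between those of the 2 hybrid libraries. EPSCs were 2.47-fold above ESCs (log2 difference 1.12 ± 0.12, SE; limma adjusted p = 0.000218) and hybrid cells 2.58-fold (1.17 ± 0.12; limma adjusted p = 0.000136). Compared with NSCs, Axin2 was at 0.172 of the mean in ESCs (log2 difference -2.28 ± 0.12; limma adjusted p = 9.5e-07), 0.425 in EPSCs (-1.16 ± 0.12; 4.8e-05), and 0.444 in hybrid cells (-1.11 ± 0.12; 6.0e-05). The Axin2 level of hybrid cells was not separated from that of EPSCs, with a log2 difference of 0.04 ± 0.12 (limma adjusted p = 0.804). Without the lower hybrid library this difference was 0.24 and passed the test (limma adjusted p = 0.0343, the lowest over all alternatives, whose highest was 0.874).

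Nkd1 encodes naked cuticle homolog 1, which binds Dishevelled and restrains the pathway. The gene (ID 93960) lies on chromosome 8 from 88521342 to 88594887. Its level was 6.52 and 6.83 FPKM in NSCs and below 1 in every other library, at 0.666 and 0.646 in ESCs, 0.241 and 0.549 in EPSCs, and 0.313 and 0.256 in hybrid cells. Both EPSC and both hybrid libraries were below the ESC libraries, the opposite order to Axin2. Hybrid cells were lower than ESCs by the test, with a log2 difference of -0.37 ± 0.11 (SE; limma adjusted p = 0.0192, range over alternatives 0.00400 to 0.0848). This call was lost without either ESC library or without the second hybrid library, and with no filter its adjusted p was 0.0332. The difference of EPSCs from ESCs, -0.26 ± 0.11, did not pass (limma adjusted p = 0.0750), and without the higher EPSC library it was -0.42 and did pass (limma adjusted p = 0.00749; range over alternatives 0.00749 to 0.380). NSCs exceeded all 3 other groups. The log2 differences from NSCs were -2.21 for ESCs, -2.47 for EPSCs, and -2.58 for hybrid cells (SE 0.11 each, filtered fit). With no filter on low values, limma gave adjusted p of 6.9e-06, 4.3e-06, and 3.5e-06.

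Rnf43 and Znrf3 encode related transmembrane ubiquitin ligases that remove Frizzled receptors from the cell surface, and Lgr5 encodes a receptor for R-spondins, which neutralise these ligases. Rnf43 (ID 207742, chromosome 11, 87663087 to 87735539) was at 18.1 and 19.4 FPKM in NSCs. In the other libraries it was at 0.0449 and 0.0654 in ESCs, 0.0439 and 0.0423 in EPSCs, and 0.0606 and 0.0320 in hybrid cells. These low values compare with 0.0225 to 0.0332 FPKM for 3 fragments on its longest transcript. Lgr5 (ID 14160, chromosome 10, 115450314 to 115587780) showed the same split, with 9.17 and 10.2 FPKM in NSCs and at most 0.0276 in the other 6 libraries, of which 5 were under the level of 3 fragments. The hybrid library at 0.0276 compared with 0.0273 FPKM for 3 fragments. From NSCs, the log2 differences of Rnf43 were -4.22 (ESCs), -4.24 (EPSCs), and -4.24 (hybrid cells), with an SE of 0.07 in the filtered fit. With no filter, limma gave adjusted p of 9.2e-08, 8.2e-08, and 8.6e-08. For Lgr5 the differences were -3.41, -3.40, and -3.39 in the same order, each with an SE of 0.07 in the filtered fit. Their limma adjusted p with no filter was 1.5e-07, 1.4e-07, and 1.5e-07. Among ESCs, EPSCs, and hybrid cells, neither gene was separated by the test at this depth, with limma adjusted p from 0.814 to 0.97.

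Znrf3 (ID 407821, chromosome 11, 5276329 to 5444847), the relative of Rnf43, was instead present in all 4 groups. It was at 3.42 and 3.87 FPKM in ESCs, 4.65 and 5.0 in EPSCs, 5.58 and 4.61 in hybrid cells, and 8.91 and 10.1 in NSCs. NSCs were highest and ESCs lowest with no overlap, and the EPSC values lay between those of the 2 hybrid libraries. EPSCs were 1.32-fold above ESCs, a log2 difference of 0.33 ± 0.11 (SE; limma adjusted p = 0.0336, range over alternatives 0.0182 to 0.185). Leaving out any 1 library of ESCs, EPSCs, or NSCs, using no filter on low values, or scaling the libraries to equal sums ended this call. Hybrid cells were 1.40-fold above ESCs, a log2 difference of 0.39 ± 0.11 (limma adjusted p = 0.0157), and leaving out the lower ESC library or the higher hybrid library ended the call (highest adjusted p over alternatives 0.108). From NSCs, the log2 difference of Znrf3 was -1.17 ± 0.11 in ESCs (limma adjusted p = 2.3e-05), -0.85 ± 0.11 in EPSCs (0.000159), and -0.79 ± 0.11 in hybrid cells (0.000246).

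Against NSCs the 10 genes divided into a set that was lower in the pluripotent lines (Axin2, Nkd1, Rnf43, Znrf3, and Lgr5) and a set that was higher (Tcf7, Tcf7l1, Sp5, and Cdx1, with Lef1 called in EPSCs alone). In EPSCs, 5 genes were called higher, where 45.2% of all genes tested were, and 5 lower, where 41.0% were. In hybrid cells, 4 were called higher (44.5% of all genes) and 5 lower (42.0%). In ESCs, 4 were higher (42.8%) and 5 lower (41.9%). These shares are near those of all genes, so the counts alone set nothing apart, and Nkd1, Rnf43, and Lgr5, which were among the lower in each, were in the tested set only through their NSC level. By the 3-fold rule on means over 3 FPKM, EPSCs had 5 members higher (6.70% of all genes) and 3 lower (8.94%), hybrid cells 4 higher (6.92%) and 3 lower (8.87%), and ESCs 2 higher (6.34%) and 4 lower (8.65%). Members past this rule as lower were Nkd1, Rnf43, and Lgr5 in all 3 comparisons, with Axin2 in ESCs. The median log2 difference of the 10 genes was 0.32 for EPSCs, -0.19 for hybrid cells, and -0.32 for ESCs, beside 0.08, 0.06, and 0.03 over all genes tested. It is the midpoint of Lef1 and Znrf3 in each, so the 0 values of Sp5 and Cdx1 do not set it. It moved with single libraries, and was 0.03 in EPSCs without the first EPSC library and 0.62 without the second, and -0.58 and 0.19 in hybrid cells without the first or the second hybrid library. The 3 comparisons share the NSC libraries. FPKM summed to 415240 and 415412 in the NSC libraries and to 600674 or more in the other 6, and scaling every library to the same sum moved the median of all genes to -0.48 for EPSCs, -0.51 for hybrid cells, and -0.47 for ESCs. The median of the 10 genes became -0.11, -0.70, and -0.76 in the same order. Calls over all genes were then 30.7% higher and 56.8% lower in EPSCs, 30.3% and 57.6% in hybrid cells, and 29.4% and 56.6% in ESCs. No member changed direction against NSCs under that scaling, and the call of Lef1 in EPSCs was lost, at 1.24 (limma adjusted p = 0.0549).

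Hybrid cells descend from both EPSCs and NSCs, and their levels of most of the 10 genes lay nearer to EPSCs than to NSCs. Over all genes, too, fewer passed the 3-fold rule against EPSCs than against NSCs. Compared with EPSCs, hybrid cells had 1 of the 10 genes, Sp5, called higher, where 22.5% of all genes tested were, and none was called lower, where 21.9% were. A missed call does not show equal levels: the ratio of the hybrid to the EPSC mean was 0.375 for Lef1 and 0.720 for Nkd1. No member passed the 3-fold rule in either direction, which 0.567% of all genes did as higher and 0.300% as lower. Against NSCs, 6.92% of all genes passed it as higher and 8.87% as lower in hybrid cells, so nearness to EPSCs is not particular to the members. The median log2 difference of the members was 0.01, beside 0.00 over all genes tested. To place each hybrid level between its parents, the difference from NSCs was divided by that of EPSCs, so that 0 is the NSC mean and 1 the EPSC mean on the log2(FPKM + 1) scale. Rnf43 lay at 0.999 ± 0.00656 (SD, n = 2) and Lgr5 at 0.996 ± 0.00526, but EPSCs and hybrid cells were both close to the level of 3 fragments for these genes, which fixes a position near 1. Tcf7 lay at 0.979 ± 0.0535. Cdx1 lay at 0.964 ± 0.0401, Axin2 at 0.963 ± 0.245, and Znrf3 at 0.928 ± 0.192. Nkd1 at 1.04 ± 0.0182 and Tcf7l1 at 1.06 ± 0.0154 lay beyond the EPSC mean, and Sp5 lay at 1.46 ± 0.0625. Only Lef1, at 0.267 ± 0.619, was nearer the NSC mean, with its libraries at 0.704 and -0.171. These positions rest on means of 2 EPSC and 2 NSC libraries, and no test was made on them. They were not computed for other genes.

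Among the nuclear factors, Tcf7l1, Tcf7, and Lef1 all bind beta-catenin, and Tcf7l2, the remaining member of the family, was added for the comparison of shares. Tcf7l1 was the most abundant of the 4 in ESCs, EPSCs, and hybrid cells, and Tcf7l2 in NSCs. FPKM is given per transcript length, so the levels of these genes can be set side by side. The 4 genes summed to 74.6 and 76.8 FPKM in ESCs, 70.0 and 67.6 in EPSCs, 70.3 and 72.0 in hybrid cells, and 15.6 and 16.1 in NSCs. Of this sum, Tcf7l1 made up 75.2% ± 0.428 (SD, n = 2) in ESCs, 60.6% ± 3.62 in EPSCs, 66.7% ± 1.09 in hybrid cells, and 25.8% ± 2.42 in NSCs. Tcf7 made up 17.8% ± 0.189, 25.5% ± 1.05, 23.7% ± 1.97, and 13.7% ± 0.328 in the same order. Tcf7l2 made up 53.5% ± 1.42 in NSCs and 4.33% to 6.69% in the means of the other groups. EPSCs and hybrid cells thus had a smaller share of Tcf7l1 and a larger share of Tcf7 than ESCs in every library. These shares are given as a description and were not tested.

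**Figure D3:**
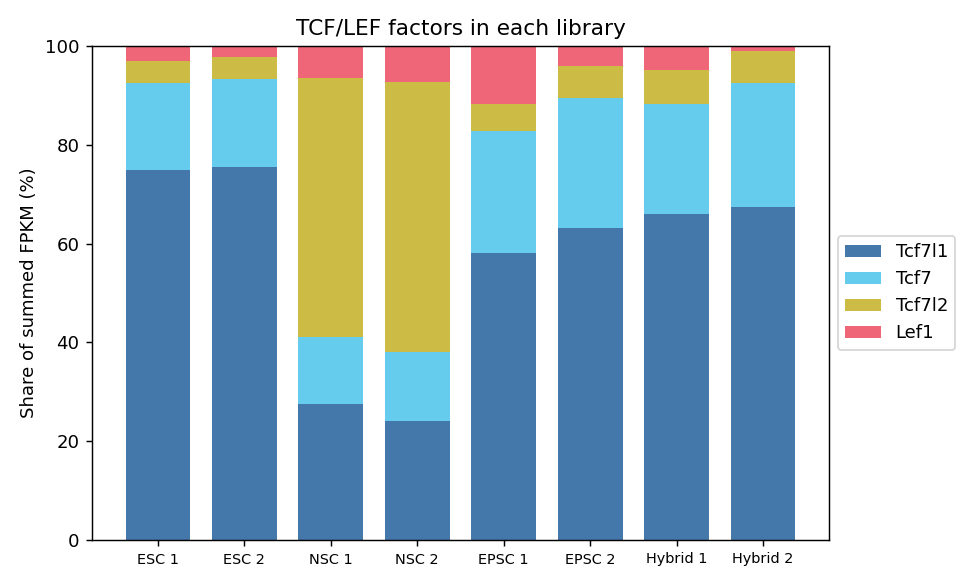
Share (%) of Tcf7l1, Tcf7, Tcf7l2, and Lef1 in their summed FPKM (stacked bars, 1 for each of the 8 libraries). Tcf7l1 takes 74.9% and 75.5% in ESCs and 58.1% to 67.4% in EPSC and hybrid libraries, and Tcf7l2 takes 52.5% and 54.5% in NSCs.

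Tcf7l1 (ID 21415, chromosome 6, 72626371 to 72789045) was at 55.9 and 58.0 FPKM in ESCs, 46.3 and 48.6 in hybrid cells, 40.6 and 42.7 in EPSCs, and 4.30 and 3.88 in NSCs. No libraries of different groups overlapped. EPSCs were lower than ESCs at 0.732 of their mean, a log2 difference of -0.44 ± 0.06 (SE; limma adjusted p = 0.000890). Hybrid cells were lower at 0.833, a log2 difference of -0.26 ± 0.06 (limma adjusted p = 0.00960), a call that was lost without the second ESC library (adjusted p = 0.0717, the highest over alternatives). Their difference from EPSCs, 0.18 ± 0.06 on the log2 scale, missed the threshold (limma adjusted p = 0.0549, range over alternatives 0.0470 to 0.196). Tcf7l1 was 13.9-fold, 10.2-fold, and 11.6-fold above NSCs in the ESC, EPSC, and hybrid lines (log2 differences 3.51, 3.07, and 3.25, each with SE 0.06; limma adjusted p = 5.7e-09, 9.5e-09, and 7.7e-09).

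Tcf7 (ID 21414, chromosome 11, 52246527 to 52283383), itself a target of the pathway, moved the other way. It was at 13.2 and 13.7 FPKM in ESCs, 17.3 and 17.7 in EPSCs, 15.7 and 18.1 in hybrid cells, and 2.11 and 2.25 in NSCs. Every EPSC and hybrid library was above both ESC libraries. EPSCs were 1.30-fold above ESCs (log2 difference 0.36 ± 0.08, SE; limma adjusted p = 0.00739, range over alternatives 0.00276 to 0.0586) and hybrid cells 1.26-fold (0.31 ± 0.08; limma adjusted p = 0.0134, range 0.00435 to 0.0876). The call in EPSCs was lost without the first ESC library, and that in hybrid cells without either ESC library, without the higher hybrid library, or with the libraries scaled to equal sums. Hybrid cells and EPSCs overlapped, with a log2 difference of -0.05 ± 0.08 (limma adjusted p = 0.640). Against NSCs, the log2 differences were 2.18 for ESCs, 2.54 for EPSCs, and 2.49 for hybrid cells, each with an SE of 0.08 (limma adjusted p = 1.5e-07, 7.0e-08, and 7.9e-08).

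Lef1 (ID 16842, chromosome 3, 131110297 to 131224357), both a TCF/LEF factor and a target of the pathway, differed most between libraries of the same line. It was at 8.21 and 2.81 FPKM in EPSCs and at 3.37 and 0.766 in hybrid cells, ratios of 2.92 and 4.39 between the libraries of a line. In ESCs it was at 2.29 and 1.79 and in NSCs at 1.02 and 1.2, ratios of 1.28 and 1.18. Both EPSC libraries lay above every ESC and NSC library, and the hybrid libraries lay on either side of them. None of the tests among ESCs, EPSCs, and hybrid cells passed. The log2 difference was 0.97 ± 0.49 (SE) for EPSCs against ESCs (limma adjusted p = 0.124, range over alternatives 0.0278 to 0.586), -0.13 ± 0.49 for hybrid cells against ESCs (0.835; range 0.186 to 0.994), and -1.09 ± 0.49 for hybrid cells against EPSCs (0.108; range 0.0262 to 0.489). Leaving out the first EPSC library took the difference of EPSCs from ESCs to 0.33 (limma adjusted p = 0.586) and that of hybrid cells from EPSCs to -0.46 (adjusted p = 0.489), and leaving out the second hybrid library took the latter to -0.44 (adjusted p = 0.482). Hybrid cells against ESCs stood at -0.78 without the first and at 0.53 without the second hybrid library, neither called. Without the second EPSC library, EPSCs exceeded ESCs by 1.60 (limma adjusted p = 0.0278) and hybrid cells fell below EPSCs at -1.73 (adjusted p = 0.0313), and without the first hybrid library the latter was -1.75 (adjusted p = 0.0262). The call against NSCs in EPSCs, 1.49 ± 0.49 (limma adjusted p = 0.0214), was lost without the first EPSC library (0.86; adjusted p = 0.133) or without either NSC library (1.43 and 1.55; adjusted p = 0.103 and 0.0817). Against NSCs, Lef1 was at a log2 difference of 0.40 ± 0.49 in hybrid cells and 0.53 ± 0.49 in ESCs, and neither passed (limma adjusted p = 0.464, range 0.0701 to 0.979, and 0.341, range 0.00443 to 0.677). The lowest value for ESCs came from fitting only these 2 groups.

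This spread of Lef1 was compared with that of all 13239 genes tested, a comparison chosen after the values were seen. On the FPKM + 1 scale, 15 genes were more than 2-fold higher in the first than in the second EPSC library, and 27 genes in the first than in the second hybrid library. Lef1, at 2.42-fold and 2.47-fold, and Trh, at 3.98-fold and 5.11-fold, were the 2 genes in both sets. Trh, which encodes the precursor of thyrotropin-releasing hormone, was at 469.6 and 117.2 FPKM in EPSCs and at 211.9 and 40.6 in hybrid cells. The ESC mean of Trh was 657.5 FPKM. In either direction, 54 genes in EPSCs and 50 in hybrid cells differed more than 2-fold between libraries. The numbers of the libraries are not known to link an EPSC library with a hybrid library. Of the other 9 members, Nkd1 had the widest ratio between EPSC libraries, 2.28, at levels below 1 FPKM, and Cdx1 followed at 1.39.

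**Figure D4:**
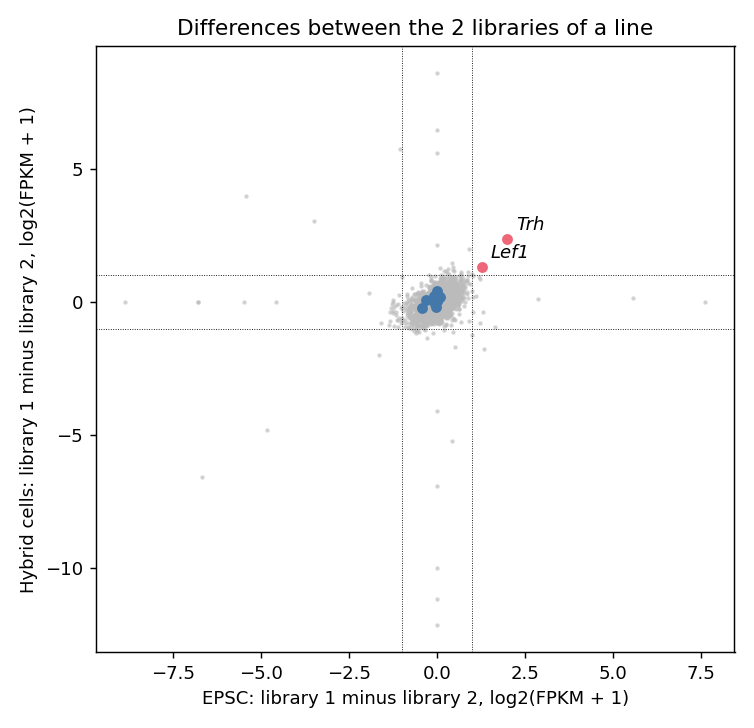
Difference in log2(FPKM + 1) between library 1 and library 2 of EPSCs (horizontal) and of hybrid cells (vertical) for the genes tested (grey points). Lef1 and Trh (red, named) lie beyond the dotted 2-fold lines in both, and the other 9 members (blue) lie inside them.

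The rest of the pathway was described by 7 lists of other Wnt genes, of which 104 genes were in the table and 74 were tested. Between EPSCs and ESCs, 30 of the 74 were called higher and 14 lower, where 33.7% and 27.3% of all genes tested were, with a median log2 difference of 0.14 beside 0.04 over all genes. Hybrid cells against EPSCs gave 20 higher and 13 lower, where 22.5% and 21.9% of all genes were, with a median of 0.06 beside 0.00. Hybrid cells against ESCs gave 29 higher and 13 lower, where 35.3% and 30.2% of all genes were, with a median of 0.11. Against NSCs the balance was the reverse, with 25 higher and 41 lower in EPSCs, 26 and 41 in hybrid cells, and 23 and 42 in ESCs, and medians of -0.53, -0.66, and -0.70. Over all genes, 45.2% were higher and 41.0% lower in EPSCs, 44.5% and 42.0% in hybrid cells, and 42.8% and 41.9% in ESCs. With libraries scaled to equal sums, the shares of all genes against NSCs became 30.7% and 56.8%, 30.3% and 57.6%, and 29.4% and 56.6%. The counts of the lists against NSCs became 21 and 48, 20 and 48, and 18 and 48, all in that order. Under the same scaling they were 27 and 17 for EPSCs against ESCs, 27 and 17 for hybrid cells against ESCs, and 18 and 12 for hybrid cells against EPSCs, where 30.2% and 30.0%, 31.6% and 33.1%, and 21.4% and 22% of all genes were higher and lower. Against NSCs, 6 calls of these lists changed sign under this scaling. Of these, Csnk1a1 in EPSCs (0.22 to -0.40; limma adjusted p = 0.00542 and 0.000308) and Ephb3 in hybrid cells (0.20 to -0.40; limma adjusted p = 0.0201 and 0.00104) passed the test in both directions, and they are named here after their values were seen.

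The counts of the single lists are small and stand beside the same shares of all genes, 33.7% higher and 27.3% lower in EPSCs than in ESCs and 22.5% higher and 21.9% lower in hybrid cells than in EPSCs. Of the 9 Wnt ligand and secretion genes tested, 2 were called higher and 1 lower in EPSCs than in ESCs, and 5 were higher and 1 lower in hybrid cells than in EPSCs. Wnt5b, a ligand best known from beta-catenin-independent signalling, was at a mean of 2.90 FPKM in EPSCs and 0.275 in ESCs, a log2 difference of 1.57 ± 0.23 (SE; limma adjusted p = 0.000822). Its relative Wnt5a had a mean of 2.87 FPKM in hybrid cells against 0.897 in EPSCs, a log2 difference of 1.02 ± 0.11 (limma adjusted p = 0.000653). Of 15 receptor genes tested, Lgr4, Ror2, and Ryk among them and no R-spondin, 7 were higher and 2 lower in EPSCs than in ESCs, and 2 were higher and 3 lower in hybrid cells than in EPSCs. Ror2, a receptor of Wnt5a, was at 6.28 FPKM in EPSCs and 2.09 in ESCs (1.24 ± 0.08; limma adjusted p = 3.1e-05). Of 9 secreted and membrane inhibitors, 1 was higher and 3 were lower in EPSCs than in ESCs, and 2 were higher and 2 lower in hybrid cells than in EPSCs. The secreted Frizzled-related proteins Sfrp2 and Sfrp4 had the largest changes, from 5.92 to 1.40 FPKM (-1.53 ± 0.12; limma adjusted p = 5.3e-05) and from 2.90 to 0.386 (-1.49 ± 0.08; limma adjusted p = 1.0e-05) between ESCs and EPSCs. The fibroblast marker sums given above were also higher in EPSCs than in ESCs and higher again in hybrid cells, and their part in these differences was not tested.

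Inside the cell, against the same shares of all genes (33.7% and 27.3%, then 22.5% and 21.9%), 6 of 13 genes of beta-catenin and its destruction complex were called higher and 3 lower in EPSCs than in ESCs, and 4 were higher and 4 lower in hybrid cells than in EPSCs. Of 11 TCF partners and cofactors, 5 were higher and 2 lower in EPSCs, and 1 was higher and 2 were lower in hybrid cells than in EPSCs. None of the genes of these lists passed a log2 difference of 1 together with the test in either comparison. Of 12 further textbook targets, 6 were higher and 2 lower in EPSCs than in ESCs (33.7% and 27.3% of all genes), and 6 were higher and 1 lower in hybrid cells than in EPSCs (22.5% and 21.9%). Their directions were mixed. Cd44, a hyaluronan receptor, had means of 1.56 FPKM for ESCs, 6.73 for EPSCs, and 15.2 for hybrid cells, with log2 differences of 1.60 ± 0.17 (SE; limma adjusted p = 0.000207) and then 1.03 ± 0.17 (limma adjusted p = 0.00310). In the 3 lines on feeders, Cd44 and the fibroblast marker sums had the same order, while NSCs, grown without feeders, had a Cd44 mean of 23.6 FPKM, and the part of feeder cells in the Cd44 levels was not tested. Tnfrsf19, a receptor of the TNF family, was at 3.30 FPKM in EPSCs and 1.08 in ESCs (1.02 ± 0.19; limma adjusted p = 0.00283). Id2, an inhibitor of helix-loop-helix factors, was at 24.9 and 33.4 FPKM in EPSCs, 10.8 and 12.4 in ESCs, 4.79 and 10.1 in hybrid cells, and 63.4 and 71.5 in NSCs. The hybrid libraries differed widely but lay below every library of the other groups. Its log2 difference was 1.25 ± 0.28 between EPSCs and ESCs (limma adjusted p = 0.00673, range over alternatives 0.000516 to 0.0510) and -1.89 ± 0.28 between hybrid cells and EPSCs (limma adjusted p = 0.00211). Myc, the growth-promoting factor often listed as a Wnt target, was lower in EPSCs, at 6.62 FPKM against 22.5 in ESCs (-1.63 ± 0.15; limma adjusted p = 0.000105). Among 5 pluripotency genes described as repressed by Tcf7l1, the EPSC calls against ESCs were 3 higher and 1 lower (median 0.37), and none was called in either direction between hybrid cells and EPSCs.

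**Figure D5:**
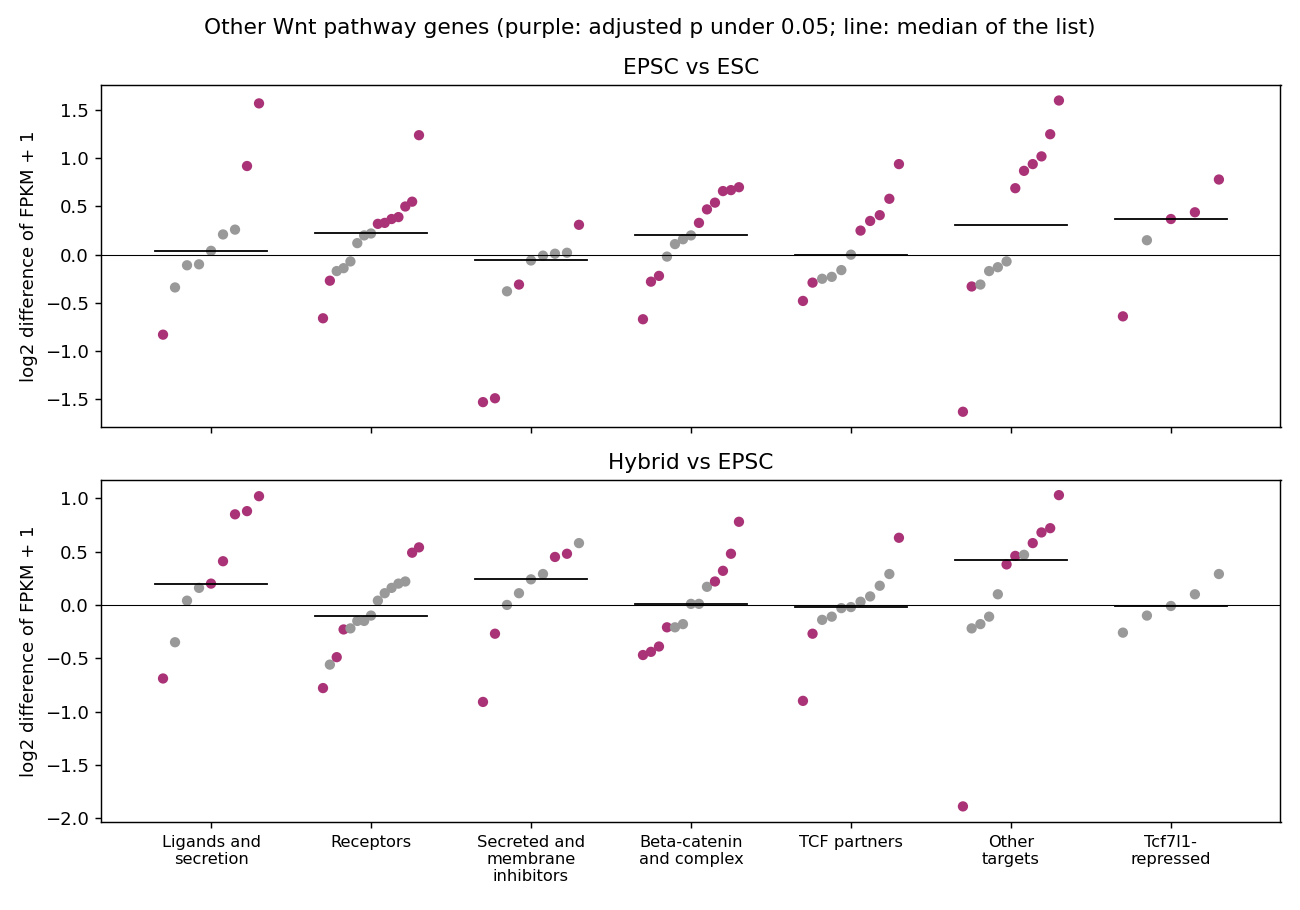
Difference of the group means of log2(FPKM + 1) for each tested gene of the 7 lists (points, purple where the limma adjusted p was under 0.05), with the median of the list as a line, for EPSCs against ESCs (top) and hybrid cells against EPSCs (bottom). The further targets have medians of 0.31 and 0.42, with Myc at -1.63 in the top panel and Id2 at -1.89 in the bottom panel.

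The genes whose levels followed Axin2 most closely over the 8 libraries were Ptprg, Zmpste24, Apaf1, Tnrc18, and Rasa2, each with a Pearson r of 0.997 on log2(FPKM + 1). The libraries share their lines, so these values describe 4 groups more than 8 points. All 5 genes were highest in NSCs and lowest in ESCs, and Ptprg, for example, had means of 21.0 FPKM in NSCs, 11.1 in hybrid cells, 10.7 in EPSCs, and 5.37 in ESCs. Among the members, Znrf3 was most like Axin2, with r of 0.956. Lgr5 had r of 0.811, Rnf43 of 0.807, and Nkd1 of 0.731, each high in NSCs alone. The remaining members ran against Axin2 or apart from it, with r of -0.861 for Tcf7l1, -0.732 for Tcf7, -0.429 for Cdx1, -0.208 for Lef1, and -0.177 for Sp5.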

How the data were processed

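Per the labels and the study's methods, poly-A RNA was prepared with a stranded TruSeq kit and sequenced paired-end. The submitters' processing notes name STAR 2.7.9a, Cufflinks and Cuffnorm 2.2.1, and build mm10. The authors deposited 1 FPKM value per gene and library. The gene annotation, strand setting, and library normalization are not given in the sources used here. Column names gave the sample of each column, with 0 left over.

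Groups were compared with limma 3.58.1 in R 4.3.3 (lmFit, contrasts, and eBayes with trend, two-sided) on log2(FPKM + 1) over all 8 libraries, with 4 residual and 3.25 prior degrees of freedom. Of 24354 genes, 13239 were tested, those whose mean reached 1 FPKM in any group. The fit was tested on simulated data. The fold rule of the study's methods was read as asking for group means more than 3-fold apart, the higher above 3 FPKM. Tables were made with Python 3.11.15, numpy 2.4.6, and pandas 2.3.3. Depth was derived from the steps of low FPKM values in genes with 1 transcript, assuming fragments of 200 bases, and 69.7% to 78.3% of those values were whole within 0.05. The level of 3 fragments uses the longest GENCODE transcript and covers counting error only. Positions and promoters come from RefSeq (GRCm38.p6).

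The members and gene lists were chosen with earlier results of these data known. All 10 members were named, with genes of the other lists called at an absolute log2 difference over 1 between EPSCs and ESCs or hybrid cells and EPSCs (at most 4 a list), and the 5 genes most like Axin2. Alternatives changed the pseudocount, filter, scaling, samples fitted, variance trend, replicate block, and fold thresholds, and left out each library in turn.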

Additional observations from a re-analysis of the deposited data

How the results depend on the processing

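No called member difference changed direction under any alternative run. Among calls of the other Wnt genes, 6 against NSCs changed sign with libraries scaled to equal sums, of which 2 were still called, and 1, Csnk1a1 in EPSCs, also did so under quantile normalization (-0.36; limma adjusted p = 0.000311). Of the alternative values of member differences, 988 stayed on their side of the threshold, 23 lost the call, and 9 gained it. Among the 988, differences that were not called could change sign, as that of Lef1 between hybrid cells and ESCs did. The limit of a change over 2-fold used next is a difference over 1 on the log2(FPKM + 1) scale. Sp5, at 0.99 between hybrid cells and EPSCs, fell short of it, though its means differed 2.28-fold. So did Nkd1, at -0.37 between hybrid cells and ESCs, with a ratio of means of 0.434. Between EPSCs and ESCs, the number of members called went from 6 to 3 when a change over 2-fold was also asked for (a limit added after seeing the data), and ranged from 4 to 7 with 1 library left out. Between hybrid cells and ESCs it went from 7 to 3 with that limit and ranged from 4 to 7 with 1 library left out, with the lowest values without either ESC library. For hybrid cells against EPSCs it went from 1 to 0 with that limit and to 2 under quantile normalization, and ranged from 1 to 2 with 1 library left out. Past the fold rule, EPSCs against ESCs gave 2 members, and 4 with both thresholds at 2. When the mean over both groups had to exceed 3, 1 member passed, Cdx1, and Sp5 did not. Hybrid cells against EPSCs gave 0, then 2 with both thresholds at 2, and 0 to 1 with 1 library left out. Of the 74 other Wnt genes tested, 44 were called between EPSCs and ESCs, and 28 to 48 with 1 library left out, the lowest values being those without either ESC library. Hybrid cells against EPSCs gave 33 calls, and 17 when only those 2 groups were fitted. The cause of these changes was not tested. Leaving out a library leaves 1 in its group, which is then assumed to vary like the other groups.

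The replicate numbers share only a number, since nothing in the methods pairs the libraries. Correlations of same-numbered deviations were 0.28 between hybrid cells and EPSCs and -0.112 to 0.069 in the other comparisons. With the replicate number as a block, 2 members were called between hybrid cells and EPSCs and 7 between EPSCs and ESCs, Lef1 being the addition in both (limma adjusted p = 0.0411 and 0.0475).

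With 1 line per group, line and medium cannot be told apart except between hybrid cells and EPSCs, which shared their medium. Depth limits Lgr5 and Rnf43 outside NSCs, where they lay near the level of 3 fragments.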
